A study of Mus musculus with 16 samples.

Results

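The 6 GATA transcription factor genes, Gata1 to Gata6, were examined in hematopoietic stem cells (HSCs) of young and aged mice, as 6 of the 21853 protein-coding genes of the GENCODE M21 annotation (build mm10). They were taken by name. Each gene was studied over its body and 5 kb on either side, called the gene window, and at its promoters, which reach 1 kb to both sides of each start site of its protein-coding transcripts. Bone marrow HSCs of C57BL/6 mice were 10 weeks old (young) or 20 months old (aged). They had been sorted as cells negative for the IL-7 receptor (IL-7Rα), Lin, CD34, CD48 and Flt3 and positive for Sca-1, c-kit and CD150. The study's methods name female mice. A figure legend of the study describes marrow pooled before sorting, for its profiles of RNA and chromatin accessibility. Whether a ChIP-seq library stands for a pool of animals is not stated there. Chromatin immunoprecipitation and sequencing (ChIP-seq) of H3K4me3, H3K27me3 and H2AK119ub1 gave 16 libraries in 8 groups, 2 for each mark and age and 2 inputs for each age. The authors' peaks came as 1 pooled list for each mark and age, 6 lists in all. The peak names of the broad lists carry a single library number, so it is uncertain whether both libraries entered them. No spread between replicates can be computed from pooled lists, and every difference below is a description of 2 lists without a test.

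GATA factors bind DNA through zinc fingers that recognize the motif for which they are named. Gata1 drives red cell and megakaryocyte development, Gata2 maintains HSCs and early progenitors, and Gata3 directs T cell development, whereas Gata4, Gata5 and Gata6 act in the heart, gut and other organs derived from mesoderm and endoderm. H3K4me3 marks promoters that are active or primed. H3K27me3 is placed by Polycomb repressive complex 2 and H2AK119ub1 by Polycomb repressive complex 1, and both marks accompany the silencing of developmental regulators. In embryonic stem cells, CpG-rich promoters of such regulators often carry H3K4me3 and H3K27me3 together, a state called bivalent.

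Across the whole series the lists differed in length. They held 11371 young and 6723 aged H3K4me3 peaks, 63142 and 20419 H3K27me3 regions, and 2593 and 17768 H2AK119ub1 regions. The aged lists covered 0.529, 0.244 and 7.83 times the length of the young lists for H3K4me3, H3K27me3 and H2AK119ub1, and the values of the GATA genes are set beside these ratios. The median pileup of an H3K4me3 peak, its read depth at the summit, was 20 reads (young) or 19 reads (aged), and these small numbers limit which regions could be listed. Reads given below for single peaks are pileups too. Of 8 HSC marker genes 5 carried an H3K4me3 promoter peak in the young list, where 34.3% of all genes did, and 6 in the aged list, where 23.7% did, and none carried a Polycomb mark. Without markers of other cells beside them, these counts are a partial check of the cell type. Ly6a (Sca-1) and Slamf1 (CD150), both used in the sort, had no promoter peak in any list.

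Sequences from 5 of the genes show the range of base composition under which these marks were found or not found. All are from mm10, written 5′ to 3′ along the gene's strand, with every CpG dinucleotide in capitals. The first stretch precedes the main start site of Gata1 (chrX:7967911-7968160, minus strand, 250 bases, from the RefSeq promoter table of GRCm38.p6) and lay under no peak of any list. The second is the young H3K4me3 peak before the proximal start site of Gata2 (chr6:88197878-88198121, plus strand, 244 bases, intronic). The third is the farther of the 2 young H3K4me3 peaks within 1 kb before the main start site of Gata3 (chr2:9879247-9879506, minus strand, 260 bases, in an intron of the transcript from the upstream start), and all of its bases also lay under an aged H3K4me3 peak. The fourth is an aged H2AK119ub1 region in an intron of Gata4 (chr14:63249816-63250029, minus strand, 214 bases), inside the widest H3K27me3 region of the aged list. The last precedes the start site of Gata5 (chr2:180334700-180334929, minus strand, 230 bases, RefSeq table), where 145 bases lay under young H3K27me3, 25 under aged H3K27me3 and 134 under aged H2AK119ub1.
Gata1: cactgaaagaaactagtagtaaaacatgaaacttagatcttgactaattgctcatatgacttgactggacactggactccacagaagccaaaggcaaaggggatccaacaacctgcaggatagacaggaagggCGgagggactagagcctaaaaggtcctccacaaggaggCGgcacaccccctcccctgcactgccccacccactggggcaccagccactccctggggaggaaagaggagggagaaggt
Gata2: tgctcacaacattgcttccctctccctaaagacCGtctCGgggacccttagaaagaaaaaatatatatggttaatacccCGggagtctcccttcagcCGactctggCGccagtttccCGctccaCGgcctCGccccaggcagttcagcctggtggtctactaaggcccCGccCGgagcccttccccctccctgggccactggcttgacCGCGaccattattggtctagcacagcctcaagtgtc
Gata3: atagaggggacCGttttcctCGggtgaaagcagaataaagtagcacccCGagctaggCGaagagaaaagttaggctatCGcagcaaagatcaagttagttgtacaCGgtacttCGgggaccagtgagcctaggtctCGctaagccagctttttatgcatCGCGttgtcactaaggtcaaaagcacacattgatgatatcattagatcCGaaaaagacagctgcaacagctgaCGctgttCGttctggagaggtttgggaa
Gata4: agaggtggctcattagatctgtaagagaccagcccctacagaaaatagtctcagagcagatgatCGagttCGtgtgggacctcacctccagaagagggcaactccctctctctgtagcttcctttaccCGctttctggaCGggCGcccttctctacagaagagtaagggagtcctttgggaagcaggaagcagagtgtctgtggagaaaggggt
Gata5: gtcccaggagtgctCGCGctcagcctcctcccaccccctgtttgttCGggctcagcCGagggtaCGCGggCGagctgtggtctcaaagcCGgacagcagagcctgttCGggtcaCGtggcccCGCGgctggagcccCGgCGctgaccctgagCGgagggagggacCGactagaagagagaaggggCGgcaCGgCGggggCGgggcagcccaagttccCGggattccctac

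The Gata1 stretch held 2 CpG and the Gata5 stretch 21, where the median of all genes was 9 for windows of either length before the main start. Of all genes, 16.3% had fewer CpG than Gata1 and 82.1% fewer than Gata5. The Gata2 peak held 12 CpG and the Gata3 peak 13, near the medians of 10 and 11 for windows of the same lengths centred on all young H3K4me3 peaks. The Gata4 region held 5, against a median of 3 over windows of the same length at all aged H2AK119ub1 regions. Over 1 kb on either side of the main start site, the CpG observed over expected ratio was 0.275 at Gata1, 0.681 at Gata2, 0.686 at Gata3, 0.598 at Gata4, 0.718 at Gata5 and 0.584 at Gata6, with a median of 0.482 over all protein-coding genes. At the main start, Gata1 thus stood below the median and the other 5 genes above it, in both groups of the family. Other coding starts differed. The upstream start of Gata3, with peaks of all 6 lists within 1 kb, had 0.454. The Gata4 starts 25.9 and 26.4 kb upstream of its main start, with 4 lists each, had 0.218 and 0.199. The Gata2 main start (0.681) had no peak within 1 kb in any list. The 3 Gata6 starts, with 5 or 6 lists, had 0.584 to 0.618, and the 3 Gata1 starts, with none, 0.146 to 0.275. The hexamers AGATAA and its forms TGATAA (first base T), AGATAG (last base G) and TGATAG (both changed), the letters bound by GATA factors, were counted on both strands of the 2001 bases around the main start. There were 5 at Gata1, 2 at Gata2, 1 at Gata3, 3 at Gata4, 2 at Gata5 and 7 at Gata6, and 90.7% of all genes held at least 1. None of the 5 printed stretches held such a hexamer, which 21.1% to 26.5% of the compared windows did.

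**Figure D1:**
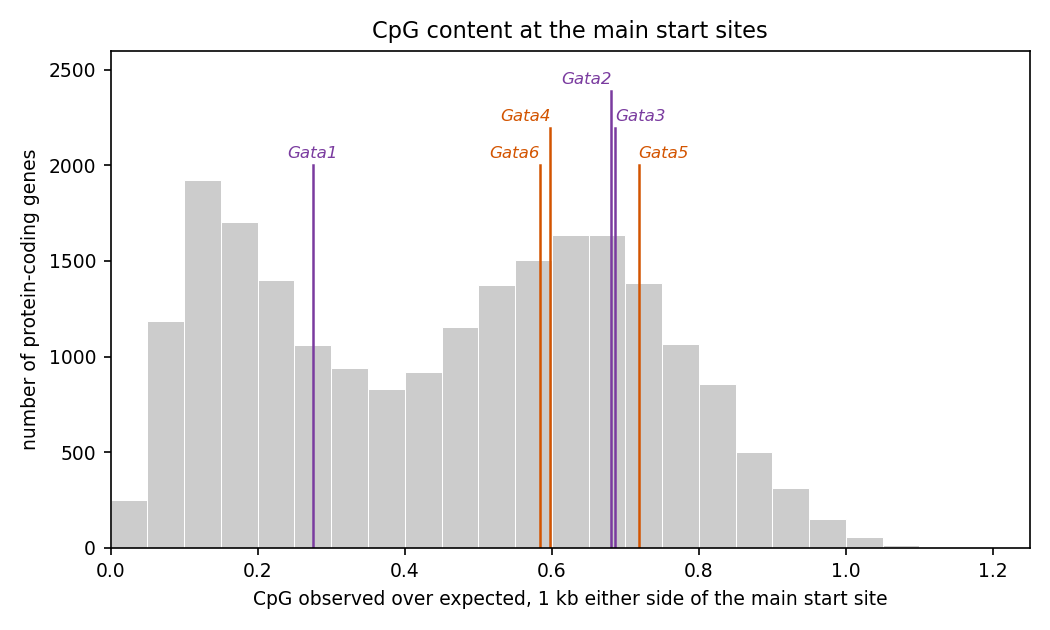
Histogram of the CpG observed over expected ratio within 1 kb of the main start site of protein-coding genes (x axis, ratio; y axis, number of genes), with vertical lines for Gata1 to Gata3 in purple and Gata4 to Gata6 in orange; line heights only separate the labels. Gata1 (0.275) lay in the CpG-poor part and the other members between 0.584 and 0.718.

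The comparison of the blood members (Gata1, Gata2 and Gata3) with Gata4, Gata5 and Gata6 asked whether the marks of the family in HSCs followed the tissues in which its members act. H3K27me3 was listed at a promoter of all 3 of Gata4, Gata5 and Gata6 at both ages and of 1 blood member, Gata3, at both ages. Among all protein-coding genes, 16.5% (young) and 8.58% (aged) carried promoter H3K27me3. H2AK119ub1 was at a promoter of Gata4 and Gata6 and of Gata3 in the young list, where 2.1% of all genes carried it, and of Gata4, Gata5, Gata6 and Gata3 in the aged list, where 14.6% did. H3K4me3 was at promoters of Gata2, Gata3 and Gata6 in the young list (34.3% of all genes) and of Gata3 and Gata6 in the aged list (23.7%). Gata3 and Gata6 carried all 6 lists at promoters, as did 22 of all genes (0.101%), and Gata1 carried none, as did 44.2% of all genes. The members are 3 genes against 3, so these counts describe the family and test nothing.

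By length, H3K27me3 covered 44.5% of the joint windows of Gata4, Gata5 and Gata6 in the young list and 23.8% in the aged list, against 14.9% and 5.71% of those of Gata1, Gata2 and Gata3. The whole of the latter came from Gata3. Gata4 supplied most of the former. Without it, Gata5 and Gata6 were covered over 27.9% and 14.6%. The means over all genes were 3.16% and 0.944%. H2AK119ub1 covered 6.25% (young) and 17.3% (aged) of the windows of Gata4 to Gata6, and 0.764% and 8.15% of those of Gata1 to Gata3. H3K4me3 went the other way, with 3.55% and 1.37% of the windows of Gata1 to Gata3 and 0.802% and 0.358% of those of Gata4 to Gata6. Gata3 supplied 2.39 of the 3.37 kb of Gata1 to Gata3 in the young list and all 1.3 kb in the aged list. Without Gata4, Gata5 and Gata6 were covered over 1.85% and 0.827%. In the aged list 1 gene of each group had a promoter peak of H3K4me3. The order of the groups in H3K27me3 was the same under all alternative settings, whereas the promoter count of young H2AK119ub1 turned under the stricter threshold, with 1 gene of Gata1 to Gata3 and 0 of Gata4 to Gata6.

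**Figure D2:**
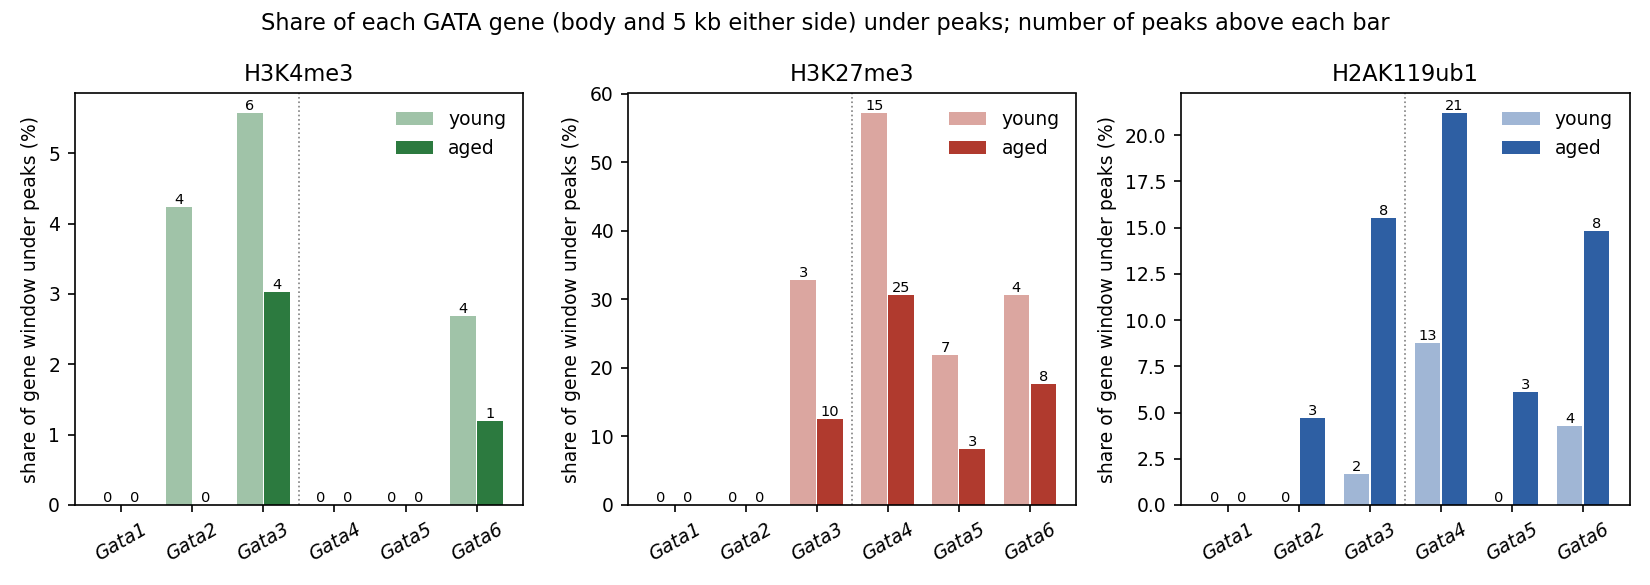
Share of each gene window under peaks (y axis, percent; scales differ between panels) for Gata1 to Gata6 (x axis) in the young (pale) and aged (dark) pooled list of each mark, with the number of peaks above each bar and a dotted line between the blood members and Gata4 to Gata6. Each bar is 1 list without replicates; H3K27me3 bars at Gata3 to Gata6 were lower and H2AK119ub1 bars at Gata2 to Gata6 higher in the aged lists.

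Gata1, the erythroid and megakaryocytic member (X:7959260-7978071, minus strand, 3 coding start sites), had no peak of any list in its window of 28.8 kb. In all, 31.6% of protein-coding genes had none. The nearest H3K4me3 peak was 196 kb downstream in the young list and 197 kb upstream in the aged list, at Tfe3 and Tbc1d25. The nearest H3K27me3 region was 30.6 kb (young) and 31.5 kb (aged) downstream, both at Eras. No promoter peak was listed for the neighbouring genes Hdac6, Glod5 and Suv39h1. Few promoters of the X chromosome carried H3K4me3, 6.86% (young) and 2.95% (aged) of 948 genes, while 27.5% and 11.6% carried H3K27me3. Of the genes on X, 36.0% had no peak of any list in their window. The part of the chromosome, of the low CpG content and of depth in the empty window of Gata1 was not tested.

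Gata2, the member required for HSC maintenance (6:88193891-88207032, plus strand), has a distal start site at 88193891 and a proximal one 4443 bp downstream. In young HSCs 4 narrow H3K4me3 peaks of 203 to 324 bp lay within the gene and covered 0.978 kb. A single peak was at a promoter, 213 bp upstream of the proximal start, with a fold enrichment of 4.44 and a pileup of 21 reads over a background of 3.96 reads. The other 3 lay in introns and exons, at fold enrichments of 3.63 to 4.44. No aged H3K4me3 peak was listed in the window, and the nearest was 109 kb upstream at Rpn1. Of all young peaks, 65.1% had a lower fold enrichment than the promoter peak. A young peak without an aged counterpart was common, since 31.5% of all young H3K4me3 peaks overlapped an aged one. With the young list reduced to the 6723 peaks of highest −log10 q, so that both ages had the same number, 2 of the 4 peaks remained, among them the promoter peak.

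No H3K27me3 was listed in the Gata2 window at either age, and the nearest young region was 26.8 kb downstream. H2AK119ub1 was not listed in the young window, whereas 3 aged regions covered 1.09 kb (4.71% of the window). They were 231 to 488 bp wide. They lay 1558 bp upstream of the distal start and 1596 and 2785 bp downstream of the proximal start, outside the promoters of 1 kb. The region 1596 bp from the proximal start had a fold enrichment of 4.06, above 98.0% of the aged H2AK119ub1 regions. When the aged list was reduced to 2593 regions, the number in the young list, that region remained and covered 0.231 kb. Gata2 was the only member with aged H2AK119ub1 and no H3K27me3 at either age.

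Gata3, known for its part in T cell development (2:9857078-9890034, minus strand), had 2 start sites that differed in their marks. The main start at 9878600 had only H3K4me3 within 1 kb, at both ages. The upstream start at 9890034, 11434 bp away, had peaks of all 6 lists. H3K4me3 covered 2.39 kb in 6 young peaks and 1.3 kb in 4 aged peaks, so the aged length was 0.543 times the young one, near the 0.529 of the whole lists. The widest young peak, 926 bp, overlapped the upstream start with a fold enrichment of 5.65 and 27 reads, and ranked 90 by width among all young peaks. Its aged counterpart was 456 bp wide, with a fold enrichment of 5.08 and 22 reads. Before the main start, peaks of 260 bp (young) and 326 bp (aged) overlapped. The young one had 24 reads over a background of 7.92 and a fold enrichment of 2.8, above 4.03% of its list, and the aged one had 23 reads over 3.52 and a fold enrichment of 5.31, above 92.0% of its list. A second young peak of 200 bp, 257 bp from the main start, was not in the aged list. Of the 6 young peaks 3 were shared with the aged list, as were 3 of the 4 aged peaks with the young list. Over all H3K4me3 peaks, 31.5% of the young and 53.1% of the aged ones overlapped a peak of the other age.

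The Polycomb marks of Gata3 lay over the 5′ part of the gene and beyond it, and no region reached the main start. Young H3K27me3 formed 3 regions of 1.31, 9.69 and 6.61 kb and covered 14.1 kb of the window (32.9%), beyond which the last of them extended. Aged H3K27me3 formed 10 regions of 0.2 to 2.08 kb covering 5.42 kb (12.6%), or 0.384 times the young length. Every aged base lay within a young region. H2AK119ub1 covered 0.725 kb in 2 young regions and 6.64 kb in 8 aged regions, 9.16 times as much, where the whole list gave 7.83. With 2593 regions in both lists the aged length was 1.42 kb, 1.96 times the young one, where the whole lists gave 1.51. Of the aged H2AK119ub1 bases 96.2% lay under young H3K27me3 and 45.5% under aged H3K27me3. H3K4me3 and H3K27me3 overlapped on 1153 bp in young HSCs, which was 48.2% of the H3K4me3 bases, and on 200 bp in aged HSCs (15.4%). Over the genome these shares were 5.81% and 1.85%. The regions also overlap 4930412O13Rik and 9230102O04Rik, so the marks cannot be given to Gata3 alone.

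**Figure D3:**
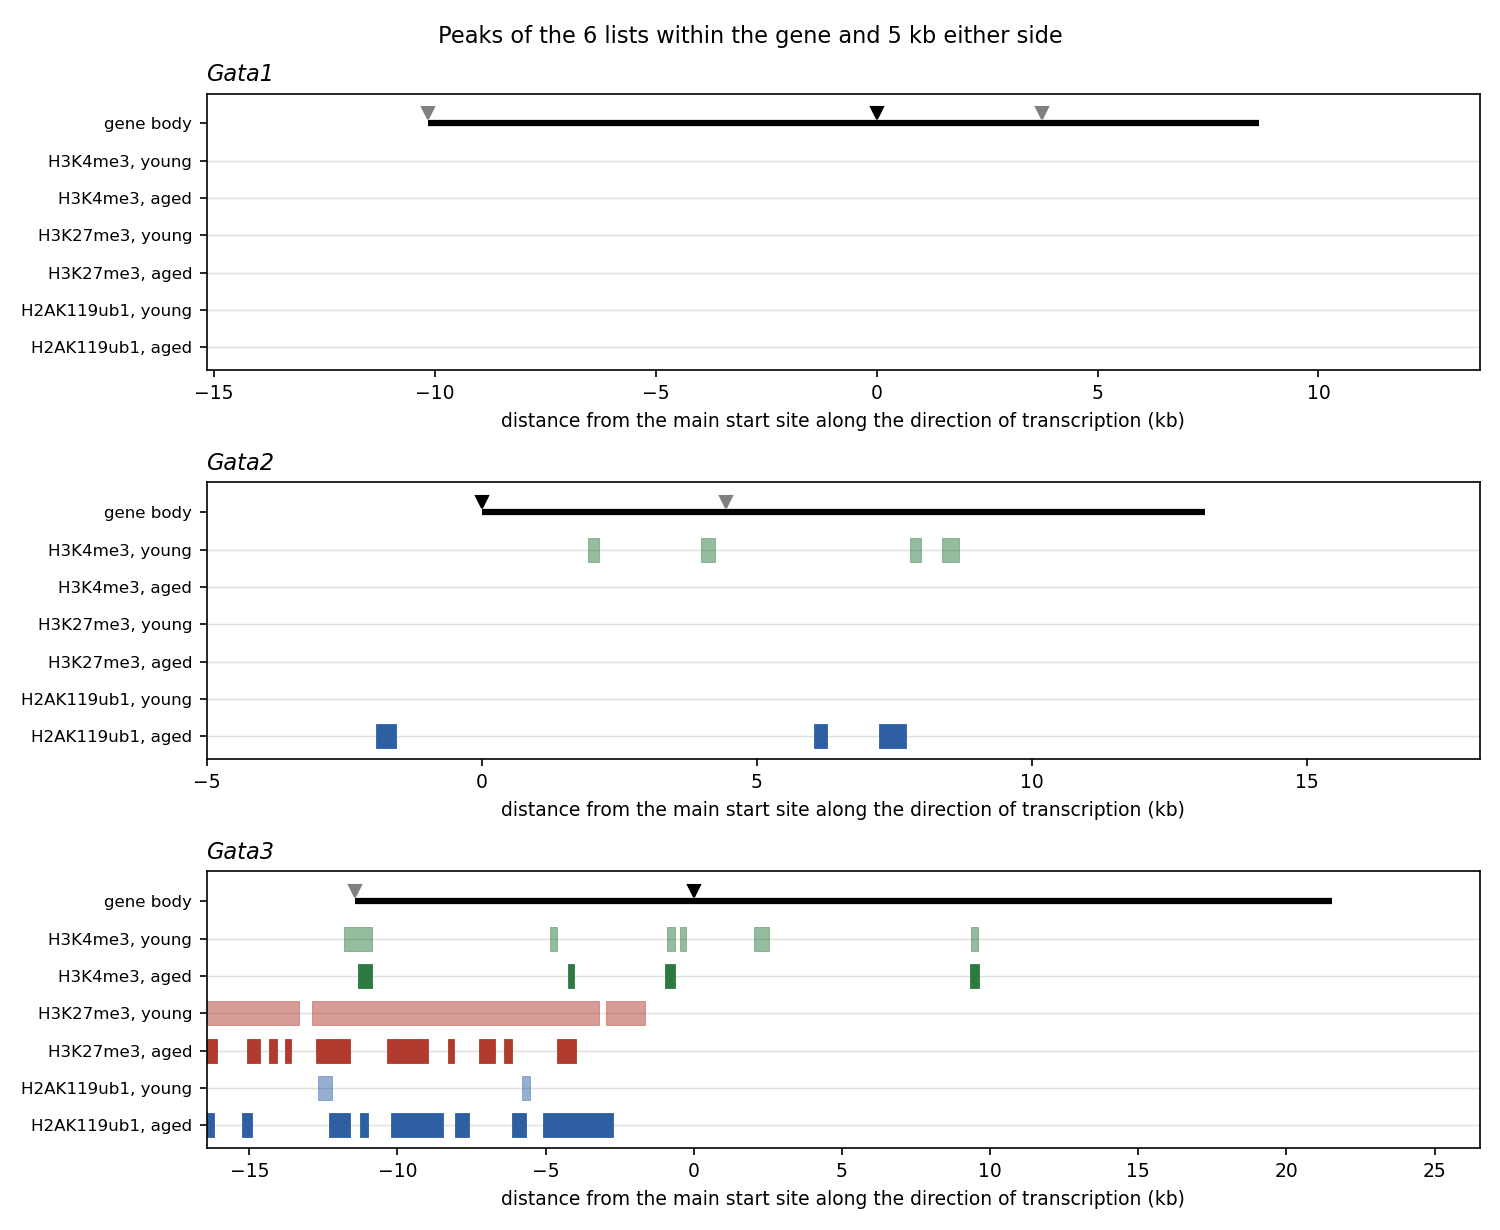
Peaks of the 6 lists at Gata1, Gata2 and Gata3 (rows, lists; x axis, distance in kb from the main start along the direction of transcription), with the gene body as a black line, the main start as a black triangle and other coding starts in grey. Gata1 was without a peak, Gata2 had young H3K4me3 and aged H2AK119ub1, and the Polycomb marks of Gata3 all lay upstream of its main start.

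Gata4, a factor of heart and endoderm development (14:63198922-63271692, minus strand, 72.8 kb), carried the most extended Polycomb marks of the family and no H3K4me3 at either age. Young H3K27me3 covered 47.4 kb, or 57.2% of the window, in 15 regions. Among all protein-coding genes it ranked 36 by covered length and 225 by share of the window. Only 3 regions, of 18.8, 15.0 and 6.05 kb, made up the block from 10.7 kb downstream of the main start to 29.8 kb upstream of it, with gaps of 286 and 382 bp between them. Aged H3K27me3 covered 25.4 kb (30.7%) in 25 regions and lay to 98.4% within young regions. Among all genes it ranked 12 by covered length and 160 by share of the window. The aged-to-young ratio was 0.537, against 0.244 for the whole lists. An aged region of 7.31 kb, from 1.27 to 8.58 kb upstream of the main start, was the widest of all 20419 aged regions. The next widest, at Tbx15, measured 5.98 kb. In the young list the widest Gata4 region ranked 16, behind regions of up to 33.3 kb at the Hoxc genes.

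H2AK119ub1 at Gata4 covered 7.26 kb in 13 young regions and 17.6 kb in 21 aged regions, ranking 3 and 6 among all genes by covered length. By share of the window the ranks were 83 (young) and 204 (aged). The aged length was 2.42 times the young length, below the 7.83 of the whole lists. When both lists held 2593 regions, Gata4 had 7.26 kb (young) and 6.93 kb (aged), so that the direction turned. All young H2AK119ub1 bases of Gata4 lay under young H3K27me3, as did those of Gata3 and Gata6, whereas 74.4% did so over the genome. Of the aged H2AK119ub1 bases 99.7% lay under young and 71.1% under aged H3K27me3, with 49.8% and 26.4% over the genome. The widest aged H2AK119ub1 region, 2.97 kb, lay 3.98 to 6.96 kb downstream of the main start and ranked 27 in its list. Start sites differed here as well. The main start and the start 23 bp from it had H3K27me3 at both ages and aged H2AK119ub1. The starts 25.9 and 26.4 kb upstream also had young H2AK119ub1, and the start 31.6 kb downstream had young H3K27me3 alone.

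Gata5, which acts in the heart and endoderm (2:180325133-180334699, minus strand, 9.57 kb, 1 coding start site), had smaller and scattered regions and no H3K4me3. Young H3K27me3 covered 4.28 kb (21.9% of the window) in 7 regions of 0.361 to 1.12 kb, and aged H3K27me3 covered 1.58 kb (8.1%) in 3 regions. The ratio was 0.37. With 20419 regions in both lists the young length was 1.89 kb in 3 regions, near the aged 1.58 kb. Of the aged bases 65.1% lay within young regions, as 66.4% did over the genome, while Gata3, Gata4 and Gata6 gave 100%, 98.4% and 94.9%. H2AK119ub1 was not listed in the young window. In the aged list 3 regions covered 1.19 kb, and 1 of them overlapped the start site with a fold enrichment of 3.2, higher than that of 46.4% of the aged regions. None of the 3 remained when the aged list was reduced to 2593 regions. Gata5os, an antisense gene, overlaps the start, and ChIP-seq does not separate the strands.

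Gata6, which acts in endoderm and heart (chromosome 18, 11052064 to 11085635, plus strand, 3 coding start sites within 1 kb), carried all 3 marks at both ages around its start sites. H3K4me3 covered 1.17 kb in 4 young peaks of 249 to 335 bp and 0.522 kb in 1 aged peak, which overlapped the main start with a fold enrichment of 4.64 and 20 reads. The young peak at the main start also had 20 reads and a fold enrichment of 4.23. H3K27me3 covered 13.4 kb in 4 young regions, among them 6.21 kb upstream and 6.96 kb downstream of the start, and 7.66 kb in 8 aged regions. The ratio of 0.574 was the highest of the family in the full lists. With 20419 regions in both lists it was still 0.574, below the 0.838 of Gata5 and the 0.586 of Gata4. H2AK119ub1 covered 1.86 kb in 4 young and 6.44 kb in 8 aged regions, 3.46 times as much, and with 2593 regions in both lists 1.86 and 3.79 kb. An aged H2AK119ub1 region of 1.56 kb covered the main start, whereas the young regions lay at least 0.821 kb from it. The gene 1010001N08Rik overlaps the H3K4me3 peak at the main start at both ages and the Polycomb regions upstream of that start. These marks cannot be given to Gata6 alone.

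At Gata6, 65.4% of the young H3K4me3 bases lay under young H3K27me3, and 2.87% of the aged H3K4me3 bases, 15 bp, under aged H3K27me3. Over the genome these shares were 5.81% and 1.85%. The aged value of Gata6 rests on 1 peak of 522 bp, and the whole aged H3K27me3 list covered 0.244 times the young length. In the young list the H3K27me3 regions parted near the main start, with boundaries 106 bp upstream and 156 bp downstream of it. In the aged list the gap reached from 648 bp upstream to 395 bp downstream, and the aged H3K4me3 peak lay from 112 bp upstream to 409 bp downstream. Gata3 and Gata6 were the members with promoter H3K4me3 and H3K27me3 together, at both ages, as were 3.13% (young) and 0.901% (aged) of all genes. For Gata3 the pair stood at the upstream start only. H3K27me3 and H2AK119ub1 were together at promoters of Gata3, Gata4 and Gata6 in the young list (1.81% of all genes), and of Gata5 as well in the aged list (5.28%).

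**Figure D4:**
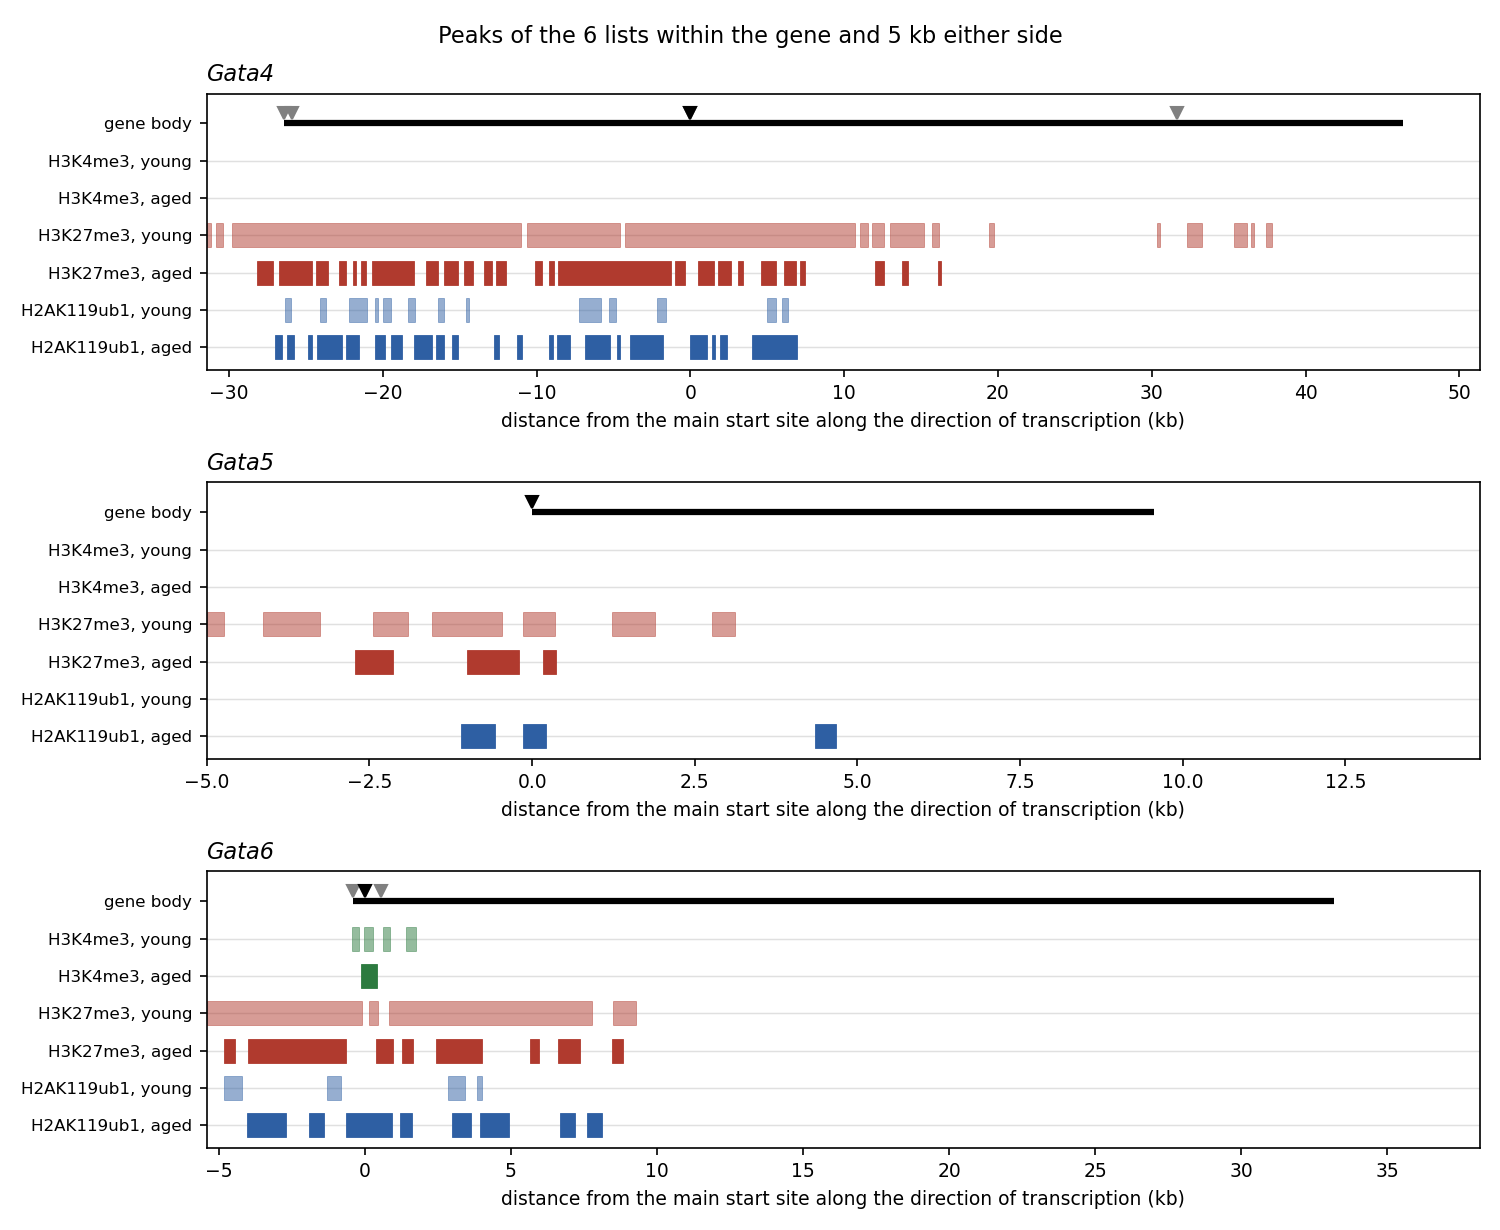
Peaks of the 6 lists at Gata4, Gata5 and Gata6, drawn as distance in kb from the main start along the direction of transcription (x axis; rows, lists; black line, gene body; black triangle, main start; grey triangles, other coding starts). Gata4 had 3 wide H3K27me3 regions among 15 in the young list and 25 regions in the aged list, the widest of 7.31 kb. At Gata6, 65.4% of the young and 2.87% of the aged H3K4me3 bases lay under H3K27me3 regions of the same age. Over the genome these shares were 5.81% and 1.85%.

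Considered as a family, 5 of the 6 genes had a peak of some list in their window. Young H3K4me3 was in the windows of 3 members and aged H3K4me3 of 2, where 40.6% and 29.0% of all genes had it. H3K27me3 was in the windows of 4 members at both ages (27.8% of all genes young, 16.5% aged), and H2AK119ub1 of 3 members in the young list and 5 in the aged list (5.99% and 29.0%). Gata3 and Gata6 had peaks of all 6 lists in the window, as did 0.732% of all genes. All 46 aged H3K27me3 regions of the family overlapped a young region, and 16 of the 29 young regions overlapped an aged one, where 66.0% of all aged and 15.4% of all young regions did. The members' young regions had a median width of 791 bp and reached 18817 bp, against a median of 397 bp in the whole young list. The shares of overlapping regions are thus not matched for width. The aged-to-young ratios of covered H3K27me3 length, 0.384 at Gata3, 0.537 at Gata4, 0.37 at Gata5 and 0.574 at Gata6, were all above the 0.244 of the whole lists. With equal numbers of regions the whole lists gave 0.465, and Gata3, still at 0.384, was below it. Of 43 aged H2AK119ub1 regions 14 overlapped a young region, and of 19 young regions 16 overlapped an aged one, where 7.07% of all aged and 50.9% of all young regions did. The median fold enrichment of the members' H3K27me3 regions was 3.46 young and 3.24 aged, where the whole lists gave 3.1 and 3.13.

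The marks of the members were set beside those of the 2 nearest protein-coding genes on each side that do not overlap the member. At Gata4, no promoter peak of any list was found for Neil2 (5.07 kb away), Fdft1 or Blk, and Fam167a carried aged H2AK119ub1 alone. At Gata2, Dnajb8 and Eefsec had none, while Rab7 carried young and Rpn1 aged H3K4me3. Gata6 lies 233 kb from Mib1 and 548 kb from Rbbp8, both with H3K4me3 at both ages and no Polycomb mark, and Abhd3 carried H3K4me3 and H3K27me3 at both ages. At Gata3, Taf3 (24.5 kb away) had no promoter peak and Atp5c1 had H3K4me3 at both ages, whereas Celf2 (2350 kb away) was marked in 4 lists. The protein-coding genes 4930412O13Rik and 9230102O04Rik overlap Gata3. Each had promoter peaks in 5 lists, among them H3K27me3 at both ages. At Gata5, Rbbp8nl had none, and Ntsr1 carried H3K27me3 at both ages. Promoter H3K27me3 was thus listed at 1 or more neighbours of Gata1, Gata3, Gata5 and Gata6 and at none of Gata2 or Gata4. Among all genes 16.5% (young) and 8.58% (aged) carried it, and no difference between members is drawn from these few neighbours.

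The partners of the GATA factors were taken as lists chosen with earlier results of these data known. Of 10 blood partners 7 (young) and 6 (aged) carried promoter H3K4me3, against 34.3% and 23.7% of all genes. Only Erg carried H3K27me3, at both ages, and Erg had all 6 lists at its promoters. Runx1 and Fli1, which act with GATA factors in blood stem cells, had H3K4me3 at both ages and aged H2AK119ub1, and Lmo2, an adaptor that bridges GATA factors to Tal1, had H3K4me3 at both ages only. Aged H2AK119ub1 was at 6 of the 10 and young at 2, against 14.6% and 2.1% of all genes. A list of heart and endoderm partners is given for 9 genes, with 1 gene of the list left out. Promoter H3K27me3 was at these 9 at both ages (16.5% of all genes young, 8.58% aged). H2AK119ub1 was at 5 (young) and 8 (aged), against 2.1% and 14.6% of all genes. H3K4me3 was at 3 and 1, against 34.3% and 23.7%, so the young share of the 9 (33.3%) was near that of all genes. Zfpm2, the cofactor of Gata4, had H3K4me3 and H3K27me3 at both ages and aged H2AK119ub1. Tbx20, a T-box factor of heart development, was marked in 5 lists and Nkx2-5, which binds Gata4, in 4. The 9 other genes with a GATA-type zinc finger, among them Trps1 and Rere, carried no Polycomb mark at a promoter in any list. Among all genes 16.5% (young) and 8.58% (aged) carried H3K27me3, and 2.1% and 14.6% H2AK119ub1. An absence at 9 genes is hard to tell from such low shares. Of the 9 genes, 6 carried young and 2 aged H3K4me3, against 34.3% and 23.7% of all genes. The aged count (22.2%) was near that share.

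**Figure D5:**
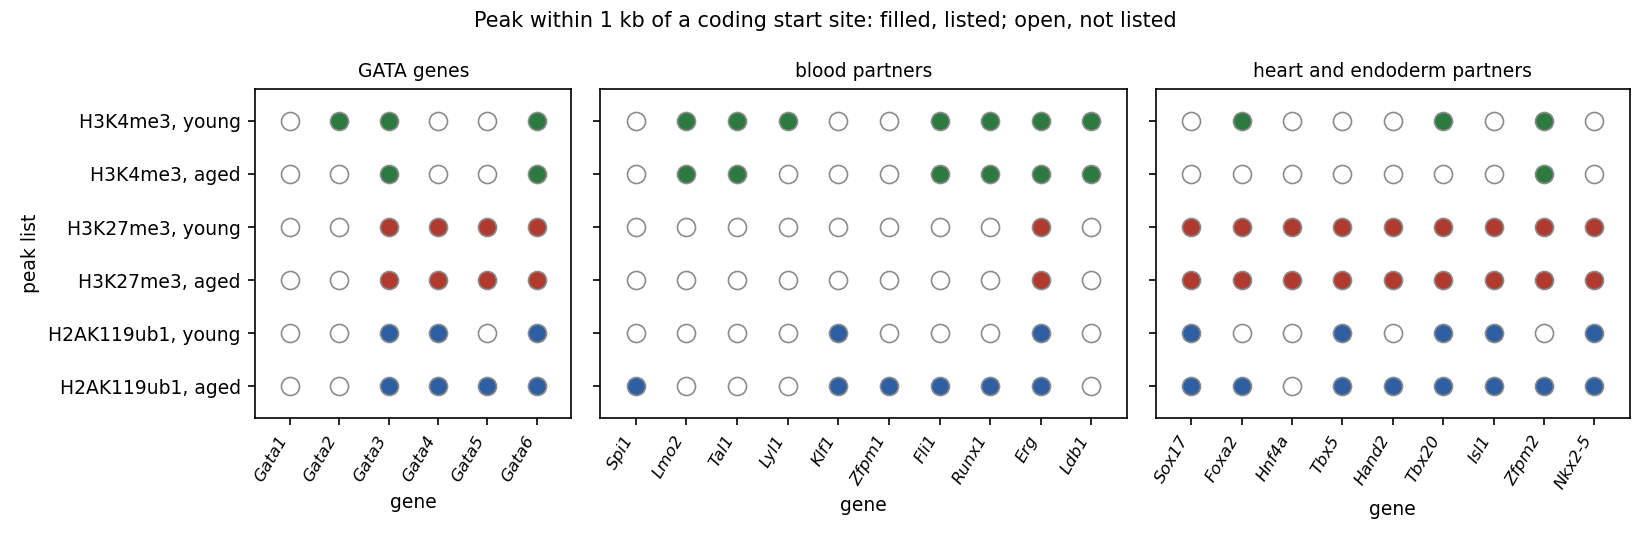
Promoter peaks (within 1 kb of a coding start site) in the 6 lists (rows) for the GATA genes, 10 blood partners and 9 heart and endoderm partners (columns); a filled circle is a listed peak and an open circle none. H3K27me3 was at Gata3 to Gata6, at 1 of 10 blood partners and at the 9 heart and endoderm partners shown.

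The genes most like each member were found as those with the smallest Euclidean distance between the 6 covered shares of the window, in percentage points over the 6 lists, for the 4 members with peaks in at least 3 lists. Gata3 was nearest to Duox2 (5.62), Zfp503 (6.74) and Dhh (6.78), and Gata6 stood at a distance of 6.96 from it. Gata4 was nearest to Sim2 (9.31), Tbr1 (9.41) and Crabp2 (10.2). Gata5 was nearest to Cpne6 (0.736), Tox2 (1.19) and Tac1 (1.24). Gata6 was nearest to Sim1 (5.39), Gsc2 (5.41) and Cabp1 (5.43). Among all pairs of members, Gata1 and Gata2 had the smallest distance (6.32). Gata1 had no peak, and Gata2 had only young H3K4me3 and aged H2AK119ub1. Their distance is thus the size of the Gata2 shares and no sign of marks in common. Gata3 and Gata6 followed (6.96), and Gata4 was 30.8 from Gata6 and 45.4 from Gata5.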

How the data were processed

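ChIP-seq peaks for 3 histone marks in young and aged HSCs were analysed. Per the labels, chromatin was cross-linked, digested with micrococcal nuclease and sonicated. The submitters' processing notes name Bowtie2, MACS2 2.2.6 and build mm10. The authors deposited 1 pooled list per mark and age, in MACS narrow (H3K4me3) or broad layout. Each deposited peak has a fold enrichment (a linear ratio over background), the −log10 of a p-value and of a q-value, and for broad regions these are averages over the region. A score column was deposited too and was not used.

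Peaks of the autosomes and sex chromosomes were overlapped by at least 1 bp with GENCODE M21 promoters and gene windows in Python 3.11.15 with numpy 2.4.6 and pandas 2.3.3. Sequences were read with pysam 0.24.0 and plots drawn with matplotlib 3.10.9. The main start was that of the transcript with CCDS support, then APPRIS principal, basic and longest. The pileup of H3K4me3 peaks (read depth at the summit, not the total of reads under the peak) was recovered as a whole number. It came from the fold enrichment and the p-value for 100% of peaks, to within 0.01 of −log10 p. The overlap and recovery code, tested on simulated data, returned 2000 of 2000 true answers in each of 3 checks. Of the 6 members, 4 had an entry in the RefSeq promoter table.

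The members and lists were chosen with earlier results of these data known. Named genes were the 6 members, the 3 most alike genes of members with peaks in at least 3 lists, and up to 4 examples of each partner list, those marked in the most lists. Of the fixed lists, the markers of other blood cells and 1 heart and endoderm partner are not reported here. No test was made, since each list is pooled. The sequencing depth of the libraries is not given in the sources used here. Input libraries and single replicates were not analysed here.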

Additional observations from a re-analysis of the deposited data

How the results depend on the processing

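No paired analysis was possible because a single pooled list stands for a mark at an age. The counts and lengths of Gata1 to Gata3 and of Gata4 to Gata6 were recomputed with equal numbers of peaks at both ages, a stricter q-value (−log10 q of at least 4 for H3K4me3 and 2 for the broad marks), 50% of the peak inside the promoter, promoters of 500 bp or 2 kb, start sites of all transcripts and, as an alternative chosen after seeing the data, start sites of basic transcripts alone.

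Equal numbers left the promoter counts as they were, except that Gata5 lost aged H2AK119ub1 (2 of Gata4 to Gata6 instead of 3), and changed the covered length of young H3K4me3 to 2.16 kb (Gata1 to Gata3) and 0.67 kb (Gata4 to Gata6), and that of aged H2AK119ub1 to 1.65 and 10.7 kb. The stricter threshold gave the same 2.16 and 0.67 kb, 0.447 and 3.51 kb for young H2AK119ub1, and no promoter count of young H2AK119ub1 at Gata4 to Gata6 (0). In the gene body alone, Gata1 to Gata3 had 3.03 kb of aged H3K27me3 and 0.278 kb of young H2AK119ub1. The promoter counts of Gata1 to Gata3, which rest on the upstream start of Gata3, became 0 for young H3K27me3 and young H2AK119ub1 when 50% of the peak had to lie inside, 0 for young H2AK119ub1 with 500 bp, and 0 for both marks at both ages with basic transcripts, which leave out that start. Basic transcripts also left 1 of Gata4 to Gata6 (Gata6) with young H2AK119ub1. With 2 kb, or with all transcripts, Gata2 joined Gata3 in aged H2AK119ub1 (2). The other counts and lengths stayed within 1.5 times. The number of reads limits what was listed, and a gene without a peak is not shown to lack the mark.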
